A study of Mus musculus with 11 samples.

Results

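The expression of 10 pigment-cell genes, Mitf, Tyr, Tyrp1, Dct, Pmel, Mlana, Slc45a2, Oca2, Slc24a5 and Gpr143, was followed in RNA from whole mouse eyes with and without miR-211. They were chosen by name, as genes of the melanosome and their regulator Mitf, by a rule that uses no measured value, at a time when earlier results of these data were known. All 10 were found by symbol among the 38393 genes listed for each library, and all 10 were among the 15767 genes tested. The eyes of 5 WT mice and of 6 miR-211-/- (KO) mice of the C57BL/6 strain (C57BL/6J in the paper's methods) gave 1 library each. The animals were 1 to 2 months old, and no treatment is named for either group. The paper's methods describe a KO line in which a stretch holding the miR-211 precursor was deleted, with no tissue-specific driver named, and controls that were littermates of matching age. Lens and cornea were taken off before extraction, which left retina, retinal pigment epithelium (RPE), choroid, sclera and ciliary body in each sample. Each library is a separate animal, and p-values therefore measure the spread between animals. The methods state that all KO animals were male and the WT animals of both sexes. The labels do not say which WT library is which, and sex entered no fit. As no KO animal was female, the fits here over all WT libraries do not separate genotype from sex. The study itself set KO males against WT males and against WT females, and it reports comparable gene ontology results.

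Melanin of the eye is made in the RPE and in melanocytes of the choroid and ciliary body, inside an organelle called the melanosome. Mitf, a basic helix-loop-helix leucine zipper factor, is the central regulator of both cell types and activates genes of melanin synthesis through a short promoter element, the M-box. Tyr (tyrosinase) carries out the first and limiting oxidation of tyrosine, and Dct and Tyrp1 process later intermediates towards eumelanin. Pmel builds the fibrils on which melanin is laid down and Mlana helps its maturation, Slc45a2, Oca2 and Slc24a5 are transporters or channels that set the ionic state of the melanosome, and Gpr143 is a receptor of the melanosome membrane. Trpm1, the host gene of miR-211, is itself a known Mitf target in melanocytes, which links the deleted miRNA to this group of genes.

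The mature miR-211-5p and its paralogue miR-204-5p, whose gene was not targeted, are shown with the seed (bases 2 to 8) in capitals, because the seed sets which transcripts a miRNA can pair with. Both were read from RefSeq on GRCm38.p6, miR-211-5p at chr7:64205831-64205852 on the plus strand, inside Trpm1, and miR-204-5p at chr19:22750610-22750631 on the plus strand.
miR-211-5p: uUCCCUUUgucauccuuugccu
miR-204-5p: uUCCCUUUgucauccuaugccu
Both have the seed UCCCUUU and differ at 1 of 22 bases, U17A, counted from the 5′ end of miR-211-5p. The letters that pair with this seed, AAAGGGA, were searched in the longest annotated 3′ UTR of each gene. They were found in 0 of the 10 genes, whose 3′ UTRs were 221 bases (Pmel) to 4278 bases (Tyr) long, and in 14.9% of 20979 mouse genes. The median length over those mouse genes was 954 bases, and only Mitf, Tyr and Slc45a2 were longer. The 14.9% was not matched for length. The search says only that these letters are not in those windows.

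Upstream of the pigment genes, the M-box core CATGTG and its extended form TCATGTG were searched on both strands of the 250 bases before each RefSeq start site, together with the E-box CACGTG. A match to the extended form is also a match to the core. RefSeq promoters were found for 6 of the 10 genes, Mitf, Tyr, Tyrp1, Dct, Oca2 and Slc24a5. These genes had 8 promoters, 3 of them those of Mitf. The core was found in 5 of the 8 promoters, 1 in each of 5 genes, against 12.3% of 32851 mouse promoters, and the extended form in 4 of the 8, against 3.3%. The M-box is known from genes of melanin synthesis, so its share in these promoters was not an independent test. The E-box was found in 0 of the 8, against 6% of mouse promoters, and none of the 3 Mitf promoters held any of these motifs. The matches are shown on the strand of each gene, with the motif in capitals, because these are the promoter letters that the 5 genes share.
Tyr, chr7:87493517-87493545, minus strand: gaaaaagttagTCATGTGctttgcagaag
Tyrp1, chr4:80834155-80834183, plus strand: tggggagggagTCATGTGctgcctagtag
Dct, chr14:118052380-118052489, minus strand: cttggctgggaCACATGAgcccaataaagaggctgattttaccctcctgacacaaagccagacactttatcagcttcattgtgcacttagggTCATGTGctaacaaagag
Slc24a5, chr2:125068103-125068126, plus strand: aggagactgctCACATGAttcagc
Oca2, chr7:56239562-56239589, plus strand: tgagcttgctaCACATGgctggaatttt
Trpm1, chr7:64153682-64153710, plus strand: ccaaatcctcaTCATGTGcccaccccaaa
The element began 22 bases before the start site of Tyr, 47 bases before that of Tyrp1 and 13 bases before that of Slc24a5. Dct had it at 232 and again at 151 bases before its start, in opposite orientations, and Oca2 had only the core, at 186 bases. Trpm1, shown because it hosts miR-211, held the extended form 142 bases before the start of 1 of its promoters and the E-box 229 bases before the start of another. The matches describe sequence and were not tested as binding sites.

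Library totals ran from 20282241 to 36317673 expected read pairs. The sequencing counts behind the 10 genes ran from 100 read pairs for Gpr143 to 23675 for Dct, so counting error was largest for Gpr143. The deleted gene Mir211 had 0 counts in all 11 libraries, WT included, and the data cannot show its loss. Trpm1 was read at 329.9 to 494.9 CPM (counts scaled to the library total, with TMM factors) in WT and at 411.6 to 464.2 CPM in KO, a log2 fold change of 0.01 (SE 0.15). The column names of a supplementary table of the study divide the libraries into a mouse-number series (WT replicates 1 and 2, KO replicates 1, 2 and 3) and an age series (WT replicates 3, 4 and 5, KO replicates 4, 5 and 6). The age series is named for column names that end in a digit and the letter m, read here as an age in months. What else differed between the series is not stated, and the age of single libraries entered no fit. Among the WT libraries, replicates 1, 3 and 5 held Xist, the transcript of the inactive X chromosome, at 794.3 to 1634 CPM, while every other library had at most 1.29 CPM. High Xist was thus found in WT libraries only, in 3 replicates, and the methods count 3 females, all of them WT. WT replicate 4 held the most lens transcripts, with a summed level of 82314 CPM over 8 lens markers against 23465 CPM in KO replicate 3, and the TMM factor of that WT library was 0.87 against 0.984 to 1.05 in the others.

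Levels of the 10 genes were compared between genes in FPKM, the deposited unit that allows for transcript length, over all 11 libraries. Dct was the most abundant with 322 ± 44.3 FPKM (SD over 11 libraries), above 99.2% of the tested genes. Pmel followed with 208 ± 43.3, Tyrp1 with 151 ± 25.6 and Mlana with 91.4 ± 13.3 FPKM. These 4 genes of melanin synthesis and the melanosome matrix stood apart from the rest, since the lowest Mlana value, 70.06 FPKM, was above the highest Slc24a5 value, 37.3 FPKM. Slc24a5 was at 31.4 ± 4.51 FPKM and Tyr, the limiting enzyme, at 16.0 ± 2.70 FPKM, so the first enzyme of the pathway had a far lower transcript level than the enzymes that act after it. Oca2 had 8.70 ± 1.54, Slc45a2 7.17 ± 1.83, Mitf 4.99 ± 0.77 and Gpr143 4.06 ± 0.49 FPKM. Mitf was thus below 8 of the 9 pigment genes, and Dct was 64.6 times as abundant as Mitf.

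The order held in most single libraries. In 9 of 11 libraries all 10 genes stood in the order of their means. The exceptions were WT replicate 1, where Gpr143 was above Slc45a2 and Mitf, and KO replicate 3, where Slc45a2 was above Oca2. The ranges over libraries overlapped for Dct and Pmel, Pmel and Tyrp1, Tyrp1 and Mlana, Oca2 and Slc45a2, Slc45a2 and Mitf, and Mitf and Gpr143. Even so, Dct was above Pmel, Pmel above Tyrp1 and Tyrp1 above Mlana in 11 of 11 libraries each. CPM divided by the length of the longest annotated transcript gave the same order of the 10 genes.

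**Figure D1:**
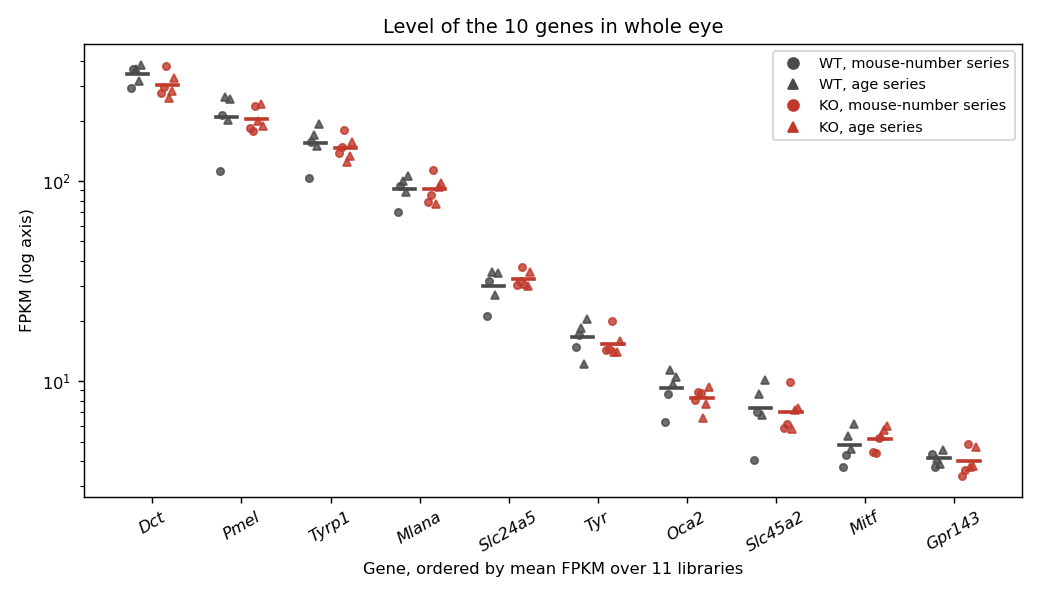
FPKM (log axis) of the 10 genes in 5 WT and 6 KO libraries, ordered by their mean over 11 libraries. Each point is a library, circles are the mouse-number series and triangles the age series, and horizontal bars are group means, which run from 345 (WT) and 304 (KO) for Dct to 4.13 and 4.01 for Gpr143.

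The comparison of genotypes asked whether pigment-gene transcripts of young adult eyes differ when miR-211 is absent. None of the 10 genes passed an adjusted p of 0.1 in edgeR's likelihood-ratio test, against 0.00634% of all tested genes, which is Xist alone. None had an unadjusted p below 0.05, against 2.09% of all tested genes, and for none did the WT and KO ranges separate, against 0.184%. The fold change was below 0 for 8 of the 10 genes, with a median of -0.10 on the log2 scale over the 10 and 0.003 over all tested genes, of which 48.9% were below 0. Of the 60 KO values, 46 lay within the WT range of the same gene, 9 below it and 5 above it. For single genes, log2 CPM was also compared between genotypes with an exact permutation test (two-sided, 462 label assignments). In bulk RNA, a change in the number of pigment cells and one in RNA per pigment cell cannot be told apart, and neither was shown here.

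Mitf (ENSMUSG00000035158; chromosome 6 of GRCm38, from 97807052 to 98021349, plus strand) had 17.6, 19.4, 21.5, 22.8 and 26.2 CPM in WT replicates 1 to 5, a mean of 21.5 ± 3.29 (SD, n = 5). In KO libraries it had a lowest value of 19.3, a median of 22.5 and a highest of 24.1 CPM, a mean of 22.2 ± 1.90 (SD, n = 6). All 6 KO values lay within the WT range. The log2 fold change was 0.04 (SE 0.13, adjusted p = 1.00, exact permutation p = 0.623). Its 95% interval, taken as 1.96 SE either way, ran from -0.21 to 0.30, which corresponds to a change between -13.6% and 23.0%. Mitf has 8 annotated transcripts with several promoters, and the gene-level counts do not separate the RPE and melanocyte forms.

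The enzymes of melanin synthesis had fold changes below 0 that none of the tests called. Tyr (ENSMUSG00000004651; chromosome 7, 87424771 to 87493512, minus strand) had 48.3, 56.4, 57.5, 45.5 and 65.9 CPM in WT replicates 1 to 5, and a lowest, median and highest value of 43.3, 47.1 and 65.0 CPM in KO. Of the KO libraries 2 were below the lowest WT library, and KO replicate 3 was close to the highest. For Tyr the log2 fold change was -0.15 (SE 0.14, adjusted p = 1.00, exact permutation p = 0.286), with a 95% interval from -0.42 to 0.13.

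Tyrp1 (ENSMUSG00000005994; chromosome 4, 80834123 to 80851719, plus strand) had 255 CPM in WT replicate 1 and 385, 391.97, 413 and 451 CPM in WT replicates 2 to 5. Its KO libraries had a lowest, median and highest value of 290, 346 and 434 CPM. All KO values lay inside the WT range only because WT replicate 1 was lower than any of them. Tyrp1 had a log2 fold change of -0.12 (SE 0.18, adjusted p = 1.00, exact permutation p = 0.506), with an interval from -0.47 to 0.23.

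Dct (ENSMUSG00000022129; chromosome 14, 118012790 to 118052244, minus strand) had 647, 817, 773, 804 and 831 CPM in WT replicates 1 to 5, a mean of 774 ± 74.4 (SD, n = 5). In KO it had a lowest, median and highest value of 552, 635 and 839 CPM, a mean of 660 ± 101 (SD, n = 6). Of the KO libraries 3 were below the lowest WT library, while KO replicate 3 was above the highest. Dct had a log2 fold change of -0.23 (SE 0.17, adjusted p = 1.00, exact permutation p = 0.0736), with an interval from -0.56 to 0.10, or from -32.3% to 7.10%. Its unadjusted p from the fit across all genes was 0.169 with edgeR and 0.038 with DESeq2, where the adjusted p was also 1.00.

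Of the melanosome matrix genes, Pmel (ENSMUSG00000025359; chromosome 10, 128704195 to 128720238, plus strand) had the widest WT spread. It was read at 234 CPM in WT replicate 1 and at 450, 522, 484 and 527 CPM in WT replicates 2 to 5, and at a lowest, median and highest value of 367, 394 and 498 CPM in KO. WT replicate 1 was at 0.465 of the median of the other WT libraries. The log2 fold change of Pmel was -0.08 (SE 0.22, adjusted p = 1.00, exact permutation p = 0.920), with an interval from -0.51 to 0.34. It was -0.24 without WT replicate 1.

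Mlana (ENSMUSG00000024806; chromosome 19, 29697824 to 29708634, plus strand) had 40.1 CPM in WT replicate 1 and 54.5, 54.4, 58.0 and 59.3 CPM in WT replicates 2 to 5. Its lowest, median and highest KO values were 42.2, 49.4 and 65.2 CPM. KO replicate 3 was the highest of all 11 libraries and WT replicate 1 the lowest. Mlana had a log2 fold change of -0.07 (SE 0.14, adjusted p = 1.00, exact permutation p = 0.630), with an interval from -0.35 to 0.21.

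Among the transporters and channels, Oca2 (ENSMUSG00000030450; chromosome 7, 56239760 to 56536518, plus strand), an anion channel that raises melanosomal pH, had the lowest fold change of the 10 genes. It was at 18.6, 25.9, 31.4, 33.9 and 31.4 CPM in WT replicates 1 to 5 and at a lowest, median and highest value of 19.6, 25.1 and 26.6 CPM in KO. The WT libraries 3, 4 and 5 were above every KO library. For Oca2 the log2 fold change was -0.24 (SE 0.17, adjusted p = 1.00, exact permutation p = 0.219), with an interval from -0.56 to 0.09. Without WT replicate 1, in which Oca2 was lowest, it was -0.36 with an unadjusted p of 0.007 and an adjusted p of 1.00, and 1.03% of all tested genes had an unadjusted p below 0.05 in that fit.

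Slc45a2 (ENSMUSG00000022243; chromosome 15, 11000721 to 11029233, plus strand), a transporter whose loss causes albinism, had 11.9, 21.0, 24.4, 22.9 and 29.2 CPM in WT replicates 1 to 5. Its KO libraries had a lowest, median and highest value of 16.2, 18.97 and 29.1 CPM. Of the 10 genes it varied most between libraries, with a coefficient of variation of 25.2% over all 11. Its log2 fold change was -0.11 (SE 0.23, adjusted p = 1.00, exact permutation p = 0.773), and the interval from -0.56 to 0.34 was the widest of the 10.

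Slc24a5 (ENSMUSG00000035183; chromosome 2, 125068124 to 125088677, plus strand), a potassium-dependent sodium-calcium exchanger, had a fold change above 0, as did only Mitf of the others. It had 39.7, 59.2, 60.8, 57.1 and 63.3 CPM in WT replicates 1 to 5 and a lowest, median and highest value of 52.8, 57.1 and 69.0 CPM in KO. Slc24a5 had a log2 fold change of 0.07 (SE 0.13, adjusted p = 1.00, exact permutation p = 0.615), with an interval from -0.19 to 0.33, and it was -0.03 without WT replicate 1.

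Gpr143 (ENSMUSG00000025333; chromosome X, 152781921 to 152808646, plus strand), the receptor mutated in ocular albinism, had 6.26, 5.73, 5.82, 6.66 and 6.46 CPM in WT replicates 1 to 5. In KO its lowest, median and highest values were 5.01, 5.37 and 7.02 CPM. None of its 6 KO values fell within the narrow WT range, with 4 below it and 2 above it. WT replicate 1 was not low for this gene, at 1.02 of the median of the other WT libraries. Gpr143 had a log2 fold change of -0.09 (SE 0.15, adjusted p = 1.00, exact permutation p = 0.331), with an interval from -0.39 to 0.21. Gpr143 lies on the X chromosome. WT replicates 2 and 4, with low Xist, had 5.73 and 6.66 CPM, and the range of the WT libraries with high Xist, 5.82 to 6.46 CPM, lay between them. In FPKM, without TMM factors, WT replicates 2 and 4 had 3.75 and 3.87, below the 4.11 to 4.56 of those with high Xist. These FPKM make no allowance for the lens transcripts of WT replicate 4, whose TMM factor was 0.87. In CPM it was the highest WT library for Gpr143. The KO libraries, all with low Xist, had 3.36 to 4.85 FPKM. A link of Gpr143 to sex was not tested.

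**Figure D2:**
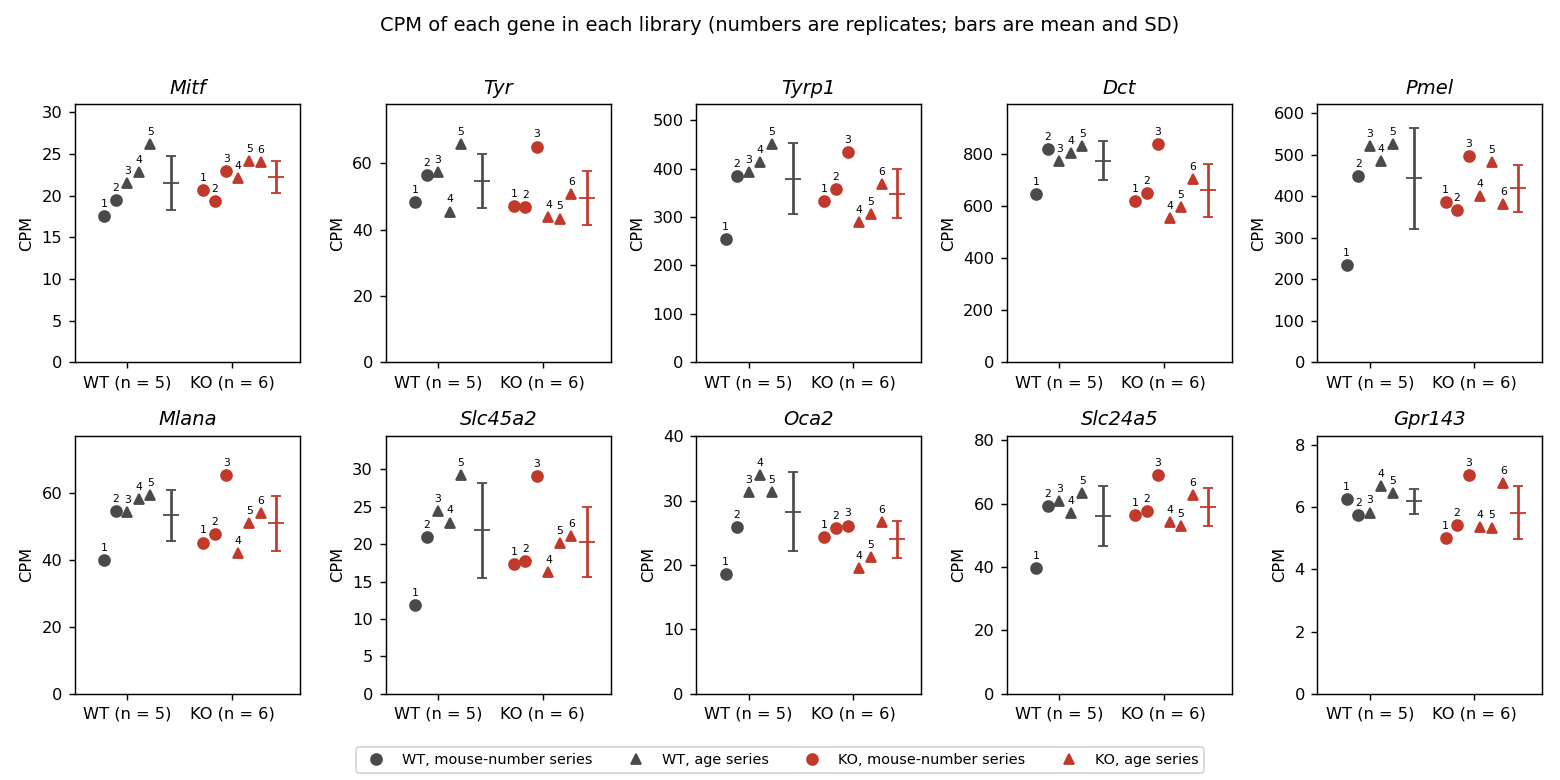
CPM of each of the 10 genes (axes from 0) in 5 WT (grey) and 6 KO (red) libraries, with replicate numbers above the points, circles for the mouse-number series, triangles for the age series and bars for mean and SD. WT replicate 1 is the lowest point of 7 panels, for example 234 CPM for Pmel, and KO replicate 3 lies near the top of most.

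WT replicate 1 set much of the WT spread. It was the lowest of all 11 libraries for 7 of the 10 genes, at 0.465 (Pmel), 0.502 (Slc45a2), 0.592 (Oca2), 0.635 (Tyrp1), 0.661 (Slc24a5), 0.713 (Mlana) and 0.794 (Mitf) of the median of the other WT libraries. Tyr (0.849) and Dct (0.798) were below the other WT median too but had their lowest values elsewhere. Without this library all 10 fold changes were below 0, with a median of -0.21 over the 10 genes and 0.004 over all tested genes. The library also differed in its other tissues. The summed level of 8 skeletal muscle markers was 8607 CPM in it, the highest of all, against a median of 2549 CPM in the other 10 libraries, and that of 8 adipocyte markers was 552 CPM against 30.2 CPM. Muscle was also high in KO replicate 1, at 8223 CPM, against a median of 2166 CPM over the KO libraries. The 9 pigment genes stood at a mean of -0.61 SD from their means over libraries there, against -1.42 SD in WT replicate 1. They stood at -0.99 SD in KO replicate 4 and -0.56 SD in KO replicate 5, where muscle was not as high. Gpr143 was the lowest of all libraries in KO replicate 1 but was not low in WT replicate 1. Of 12 RPE markers, 8 were below the median of the other WT libraries in WT replicate 1, and Rpe65, the defining RPE isomerase, and Lrat, a retinol acyltransferase, were the lowest of all libraries there, with 90.2 and 86.0 CPM. The summed level of the 12 markers, 2228 CPM, was the median of the WT libraries, but Ttr, a retinol carrier, was the highest of all there with 929 CPM. Without Ttr, a step chosen after seeing the data, the sum was 1299 CPM, the lowest of all libraries, against 1388 to 1758 CPM in the other WT and 1388 to 1807 CPM in the KO libraries. The summed level of 6 melanocyte markers was also the lowest, with 109 CPM. Of these, Sox10 and Tfap2a were the lowest of all libraries there, while Mc1r, Kit, Pax3 and Ednrb were not. Mc1r had 3.11 CPM, against a lowest value of 2.69 CPM over the 11 libraries. The part of these differences in the low pigment genes was not tested.

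The difference between genotypes was then read within each library series. In the age series all 10 fold changes were below 0, with a median of -0.29, and in the mouse-number series 8 of 10 were above 0, with a median of 0.19. Within the age series, 6 genes had every KO library below every WT library in CPM, which uses TMM factors. They were Tyrp1, Dct, Pmel, Mlana, Slc45a2 and Oca2. The same was seen for 5.78% of all genes tested there, while 6.24% had the opposite. The pigment genes rose and fell together across libraries, with a median correlation of 0.73. Counts over the 10 genes, here and in the other comparisons, are therefore not counts of separate events. Separation was wide for Oca2, with 31.4 to 33.9 CPM in WT and 19.6 to 26.6 CPM in KO, and for Dct, with 773 to 831 CPM in WT and 552 to 704 CPM in KO. It was narrow for Pmel, whose lowest WT value was 484.5 CPM and highest KO value 483.0 CPM, and for Mlana, with 54.4 and 54.1 CPM.

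Of the 10 genes 3 had an unadjusted p below 0.05 in the age series, against 4.07% of all genes tested there. They were Oca2 with a log2 fold change of -0.52 (adjusted p = 0.227), Slc45a2 with -0.41 (adjusted p = 0.931) and Tyrp1 with -0.38 (adjusted p = 1.00), and none passed the adjusted threshold. As the pigment genes moved together across libraries, these 3 are not separate events. An exact permutation test of 3 against 3 libraries cannot go below 0.1. Without WT replicate 4, the library with the lens transcripts, 7 genes had every KO library of this series below both remaining WT libraries, as did 11.1% of all genes, an alternative chosen after seeing the data. WT replicates 3 and 5 of this series had high Xist and WT replicate 4 did not. In CPM, which uses its TMM factor of 0.87, WT replicate 4 was above every KO library of the series for all 6 separated genes. Oca2 had 33.9 against at most 26.6 CPM, Dct 804 against 704 CPM and Tyrp1 413 against 369 CPM. In FPKM, without TMM factors and so with no allowance for the lens transcripts, only Oca2 stayed above them, at 9.68 against at most 9.34. WT replicate 4 was then below KO replicate 6 for Tyrp1 (150 against 157), Dct (317 against 327), Mlana (88.8 against 97.8) and Slc45a2 (6.79 against 7.39). For Pmel it was below KO replicate 5 (203 against 244).

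In the mouse-number series the ranges overlapped for all 10 genes, whereas 10.9% of all genes tested there had KO below WT throughout and 9.56% had KO above WT. No gene of the 10 had an unadjusted p below 0.05 there, against 3.95% of all tested genes. The highest fold change was that of Slc45a2, 0.38 (adjusted p = 0.978), with means of 16.4 CPM in the 2 WT libraries and 21.4 CPM in the 3 KO libraries. WT replicate 1 is 1 of the 2 WT libraries of this series.

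Whether the genotype effect differed between the series was tested with an interaction term over all genes. The effect was lower in the age series for all 10 genes, with differences on the log2 scale of -0.80 for Slc45a2, -0.71 for Oca2 and -0.61 for Tyrp1 and the smallest, -0.07, for Gpr143. Slc45a2 and Oca2 had an unadjusted p below 0.05, as did 2.71% of all tested genes, and the adjusted p was 1.00 for each of the 10.

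**Figure D3:**
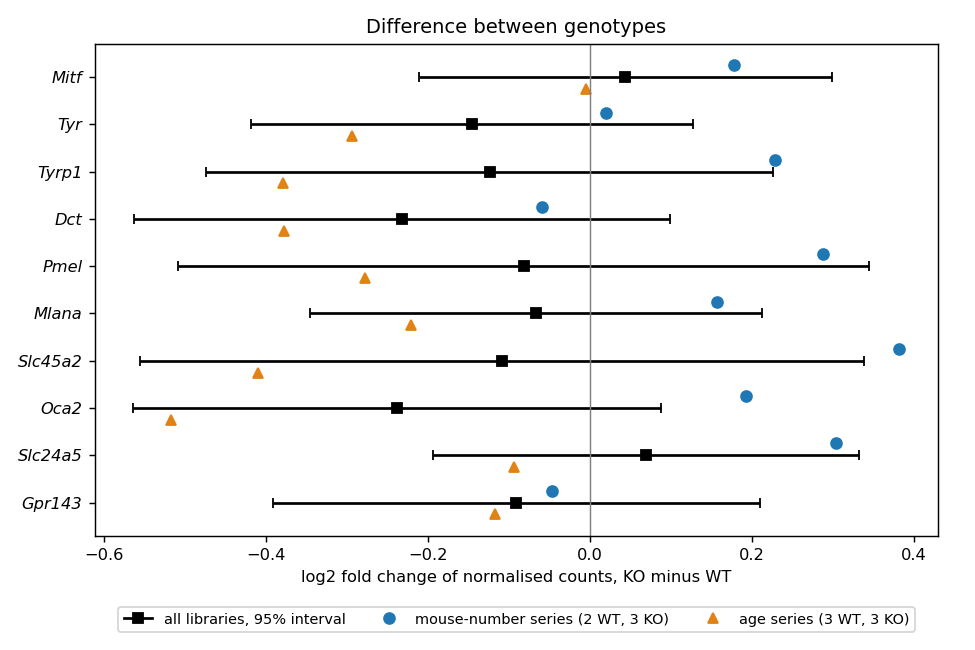
Log2 fold change, KO minus WT, of the 10 genes over all libraries (squares with 95% intervals), within the mouse-number series (circles) and within the age series (triangles). All 10 intervals include 0, and every triangle lies to the left of its circle.

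The 9 pigment genes rose and fell together across libraries, which is given as a description because values of one library share its depth, its scaling and its mixture of tissues. Over the 36 pairs of pigment genes the correlation of log2 CPM across the 11 libraries (Pearson) had a median of 0.73 and ran from 0.11 (Pmel with Gpr143) to 0.95 (Mlana with Slc45a2). Without WT replicate 1 the median was 0.77. Each pigment gene was also compared with the mean profile of the other 8. Over all 11 libraries Tyrp1 (0.97), Mlana (0.95) and Slc45a2 (0.95) followed it most closely, and Tyr (0.71) and Gpr143 (0.51) least. With single pigment genes, Gpr143 had correlations of 0.11 (Pmel) to 0.70 (Dct). Without WT replicate 1 they were 0.43 (Pmel) to 0.86 (Mlana).

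The correlation of Mitf with single pigment genes had a median of 0.53, from 0.24 for Dct to 0.73 for Slc45a2, and a median of 0.24 without WT replicate 1, in which both Mitf and most pigment genes were low. With the mean profile of the 9 it was 0.59 over all 11 libraries, and 380 of the tested genes (2.41%) had a higher value. The 0.51 of Gpr143 with the other 8 was lower, but WT replicate 1 entered both values. Without that library Mitf had 0.15 (Dct) to 0.55 (Slc45a2) with single pigment genes, and Gpr143 had 0.43 to 0.86. The 3 KO libraries of the age series had Mitf above its mean, by 0.16 to 0.89 SD, with the 9 pigment genes at a mean of -0.99, -0.56 and 0.24 SD. Dct was 62.9 to 85.4 times as abundant as Mitf (FPKM) in WT libraries, and 49.0, 49.8 and 55.0 times in these 3 KO libraries against 62.3 to 73.1 times in the other KO libraries.

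**Figure D4:**
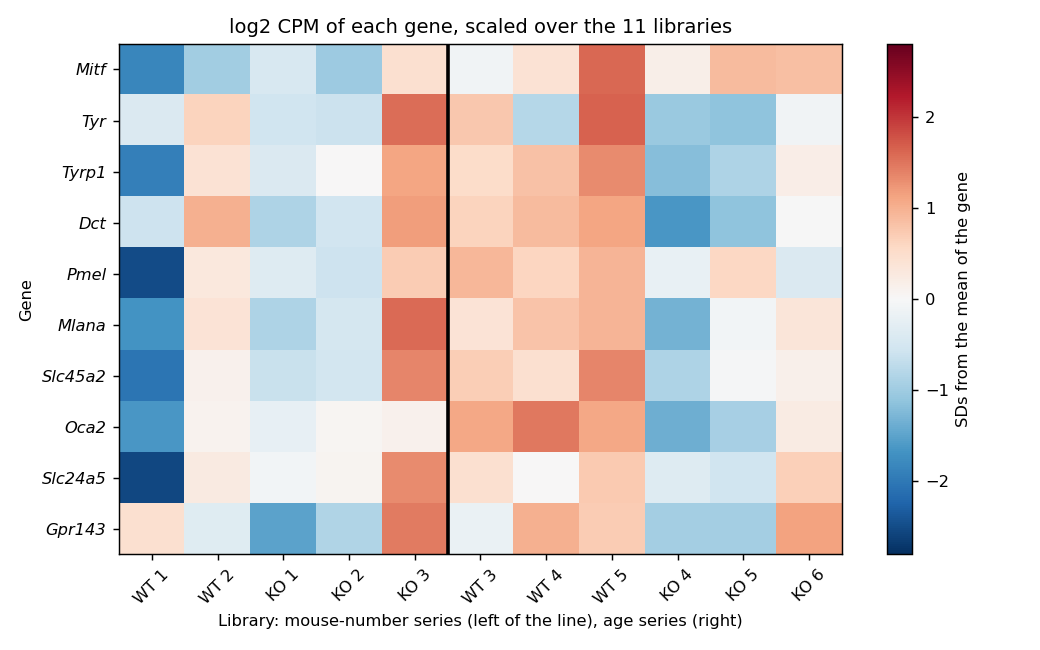
Log2 CPM of the 10 genes (rows) in 11 libraries (columns), each gene centred on its mean and divided by its SD over libraries, with red above and blue below the mean. WT replicate 1 is blue for 9 genes and WT replicate 5 is red for all 10, while the age series on the right divides by genotype for most pigment genes but not for Mitf.

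**Figure D5:**
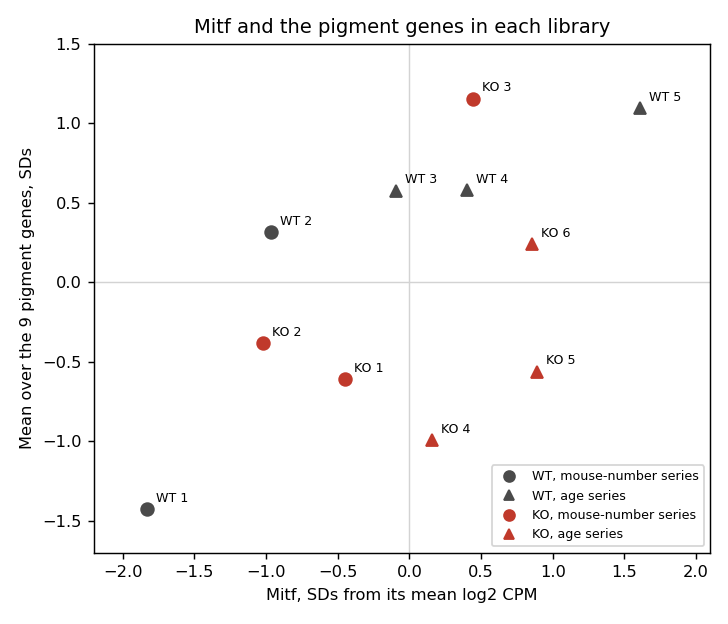
Mitf (horizontal, SDs from its mean log2 CPM) against the mean over the 9 pigment genes (vertical, SDs) in each library, grey for WT and red for KO, circles for the mouse-number and triangles for the age series. WT replicate 1 is lowest on both axes, at -1.83 and -1.42, and KO replicates 4 and 5 have Mitf above its mean with the pigment genes below theirs.

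The genes whose profile was most like the mean of the 9 pigment genes over the 11 libraries were Mcoln3 (r = 0.95), an endolysosomal cation channel, C2 (0.93), a complement component, Hpse (0.93), the heparan sulphate-cleaving enzyme heparanase, Aph1c (0.91), a gamma-secretase subunit, and 9130023H24Rik (0.91). Mcoln3 was at 6.61 CPM in WT and 4.997 CPM in KO, a log2 fold change of -0.40. Those most like Mitf were Spic (0.90), a transcription factor of macrophages, Tbx20 (0.90), a T-box factor, Prpf8 (0.89) and Sf3b2 (0.89), both parts of the spliceosome, and Mtss1 (0.89), an actin-binding protein. No gene was in both sets of 5.

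The pigment genes were also set against the RPE. With the 11 RPE markers that passed the expression filter, Ttr included, averaged as log2 CPM in each library and subtracted, the difference between genotypes was -0.21 for Dct, -0.18 for Oca2, -0.12 for Tyr and 0.00 for Pmel on the log2 scale, and 0.08 for Mitf. In WT libraries Dct stood 2.75 ± 0.15 (SD, n = 5) above the markers, and in KO libraries 2.55 ± 0.20 (SD, n = 6), with ranges that overlapped. The spread of Tyr over libraries fell from 0.22 to 0.17 on this scale and that of Pmel from 0.34 to 0.32. The RPE markers had a median log2 fold change of -0.05 and the 6 melanocyte markers one of -0.09, and 0 genes of either list had an unadjusted p below 0.05. Rpe65 had means of 127 ± 23.0 CPM for WT and 137 ± 20.5 CPM for KO (SD), and Mc1r, the melanocortin receptor that marks melanocytes, of 3.84 ± 0.55 and 3.61 ± 0.93 CPM. All 12 RPE markers and all 6 melanocyte markers were detected in every library, although Best1 was below the expression filter, at 0.35 to 1.09 CPM. The whole-eye RNA does not say which of these cell types the pigment transcripts came from.

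Other genes of pigment biology were followed as fixed lists of 51 genes, of which 50 were matched by symbol and 49 tested. The adjusted threshold was passed by 0 of 49, and 1 had an unadjusted p below 0.05, a share near the 2.09% of all tested genes. The median log2 fold change over the 49 was -0.03, with 29 below 0. Partners and relatives of Mitf such as Tfe3, Sox10, Pax6 and Otx2 gave 0 of 11 with an unadjusted p below 0.05 and a median of 0.02. Receptors and ligands of melanocytes gave 0 of 6, all 6 with a fold change below 0 and a median of -0.09, and the genes of melanosome transport gave 0 of 7.

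That 1 gene was Gpnmb, 1 of 25 genes of melanosome biogenesis, which codes for a melanosomal glycoprotein related to Pmel and is also made by macrophages. It had 305, 350, 417, 366 and 419 CPM in WT replicates 1 to 5, and a lowest value of 251 and a highest of 332 CPM in KO. The KO libraries overlapped the WT range only through WT replicate 1. Its log2 fold change was -0.41 (SE 0.15) with an unadjusted p of 0.005 from the fit across all genes, which did not pass the adjusted threshold (adjusted p = 1.00). Its correlation with the mean profile of the 9 pigment genes was 0.75.

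Marker lists of other tissues were followed in the same fit. Skeletal muscle markers had a median log2 fold change of -0.56, with 0 of 8 at an unadjusted p below 0.05, against 2.09% of all tested genes. Adipocyte markers had a median of -2.01 with 2 of 7 below it (Cfd and Retn), lens markers -2.19 with 2 of 7 (Bfsp1 and Bfsp2) and fibroblast markers -0.41 with 1 of 6 (Fmod). Blood markers had a median of -0.63 and rod markers one of 0.08, with 0 genes of either list below it. The summed lens level had a median of 32.1 CPM in WT and 58.5 CPM in KO libraries. WT replicate 4 held 82314 CPM and KO replicate 3 held 23465 CPM, so the lens means of both genotypes were set by single libraries. The correlation of each summed list with the mean profile of the 9 pigment genes was 0.67 for melanocyte, 0.36 for RPE (0.59 without Ttr), 0.46 for rod, 0.48 for lens and 0.14 for fibroblast markers, and -0.32 for adipocyte, -0.31 for muscle and -0.24 for blood markers, as descriptions over 11 libraries. For single melanocyte markers this correlation ran from 0.10 for Kit to 0.81 for Ednrb, with 0.30 for Mc1r. The part of these tissues in the pigment-gene values was not tested.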

How the data were processed

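TruSeq RNA-seq libraries of 5 WT and 6 KO whole eyes, without lens and cornea, were read in 100-nt pairs. Per the labels and the paper's methods, the authors quantified the reads with RSEM 1.2.19 on the M4 release of Gencode. For each gene and library the authors deposited the expected count, an unscaled estimate of read pairs, and the FPKM, scaled by effective length and mapped fragments. The labels name a HiSeq 1000 and the series design a GAIIx.

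Expected counts were rounded. The 15767 genes that reached 1 CPM in 5 or more of the 11 libraries were scaled by TMM and compared between genotypes by the likelihood-ratio test of edgeR 4.0.16 (R 4.3.3), with Benjamini-Hochberg adjustment over all of them and a threshold of 0.1. At the lowest total, 1 CPM is about 20.3 read pairs. Log2 CPM used a prior count of 2. The code of the test was checked on simulated counts with less spread between libraries than these data, whose biological coefficient of variation was 26.1%. That check gives no power or error rate for these data. Single genes were also tested on log2 CPM by exact permutation of the genotype labels (two-sided, 462 assignments). FPKM values were used for levels, and on a log2 scale with a pseudocount of 0.1 or 1 in limma 3.58.1. Library series were matched to column names of the study's supplementary table by the proportion of counts over 63 genes (coefficient of variation at most 0.193%, next best at least 24.5%). Symbols and positions came from Gencode M21 (GRCm38), which matched 95.4% of identifiers, and sequences from RefSeq GRCm38.p6 tables and Gencode M21 transcripts.

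The genes named are the 10 members, list genes with an unadjusted p below 0.05 or that define a list, and the 5 genes most like each of 2 profiles. Trpm1, Mir211 and Xist were named as checks. Outside this rule, Lrat and Ttr were named for their values in WT replicate 1 and Best1 for missing the expression filter. Some Mitf partners and melanocyte markers were named as examples of their lists. Members and lists were chosen with earlier results of these data known. No column of another series was found (0). Alternatives were the quasi-likelihood test, DESeq2 1.42.0, other scalings and filters, limma, the replicate block, the library series and each library left out. TPM was not used here.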

Additional observations from a re-analysis of the deposited data

Results flagged for a closer look

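In WT replicate 1 the log2 CPM of 5 of the 10 genes stood far from the other WT libraries, judged by the gap to the nearest library as a share of the range of the group. The share was 0.719 for Tyrp1 (255 CPM against 385 to 451 CPM in the other WT libraries), 0.711 for Dct (647 against 773 to 831 CPM), 0.806 for Pmel (234 against 450 to 527 CPM), 0.781 for Mlana (40.1 against 54.4 to 59.3 CPM) and 0.778 for Slc24a5 (39.7 against 57.1 to 63.3 CPM). The limit for groups of 5 is 0.71. Of the 20 groups examined (10 genes in each genotype) 5 were beyond their limit, where chance gives about 1 in 20, and all 5 are the same library, so that they are not separate events. The library also had the highest summed skeletal muscle (8607 CPM) and adipocyte (552 CPM) markers, and their part in the low pigment genes was not tested. No gene stood apart in a KO library by this measure.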

How the results depend on the processing

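None of the 10 genes passed the adjusted threshold under any of the 23 alternatives, in 230 values, with a lowest adjusted p of 0.227 (Oca2 in the age series). An unadjusted p below 0.05 was reached in 5 of the 230, by Dct with DESeq2 (1 gene, against 3.22% of all genes), by 3 genes in the age series and by Oca2 without WT replicate 1. The sign turned in 13. In the mouse-number series the log2 fold change was 0.0193 for Tyr, 0.23 for Tyrp1, 0.29 for Pmel, 0.16 for Mlana, 0.38 for Slc45a2 and 0.19 for Oca2, and the median over the 10 genes 0.19. In the age series it was -0.00499 for Mitf and -0.0934 for Slc24a5, with a median of -0.29. Pmel was at 0.0182 with limma on log2(FPKM + 0.1) and at 0.0178 on log2(FPKM + 1). Without 1 library, the log2 fold change ran from -0.0215 (without WT replicate 1) to 0.125 for Mitf, from -0.0326 (without WT replicate 1) to 0.117 for Slc24a5 and from -0.266 to 0.0169 (without WT replicate 5) for Slc45a2, and the median over the 10 genes ran from -0.21 to -0.04. The number with an unadjusted p below 0.05 ran from 0 to 1 and the number of all genes called from 1 to 11 (11 without KO replicate 1). All genes called numbered 0 with the quasi-likelihood test (446 at an unadjusted p below 0.05) and with both limma fits (417 and 414), 2 with DESeq2, 2 with at least 1 count in any library, 10 with the library series as a covariate, 2 in the mouse-number series and 36 in the age series, against 1. With the replicate number as a block, which leaves out KO replicate 6, 10 genes were called, 0 of them among the 10 pigment genes, and the log2 fold change of Dct was -0.26 and of Oca2 -0.25. Same-numbered libraries correlated at 0.537, 0.633, -0.332, -0.258 and 0.534, and 3 of 5 correlated best with their own number, so the numbers were not taken as pairs. The TPM alternative was not run. Length-scaled CPM used annotated and not effective lengths. Depth limits Gpr143 most, at 100 to 197 counts.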
